A study of Mus musculus with 24 samples.

Results

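Expression of 7 genes was followed in monocytic and polymorphonuclear myeloid-derived suppressor cells (M-MDSCs and PMN-MDSCs) of tumour-bearing mice. Ccr2 and Ly6c2 encode surface proteins of classical monocytes, F13a1 and F10 encode coagulation factors, Fn1 and Vcan encode matrix proteins, and Ahnak encodes a giant scaffold protein. They were taken by symbol from the table of normalized read counts, where each has 1 row among 23479 genes. All 7 passed the filter on low values in every comparison, so none is left out below. The study asked how lymphodepletion and the loss of interleukin 6 (IL-6) shape suppressor cells, and it compared 8 groups of 3 libraries.

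All mice carried B16 tumours, a transplantable melanoma, of more than 25 mm2. The groups were lymphodepleted (LD) mice labelled IL-6KO, lymphodepleted mice labelled WT, untreated (UT) mice labelled IL-6KO and untreated mice labelled WT, each with M-MDSC and PMN-MDSC libraries. IL-6KO mice were of strain B6.129S2-Il6tm1Kopf/J, which carries a germline targeted allele of Il6, and WT mice were C57BL/6. Lymphodepletion was cyclophosphamide with fludarabine, and spleens were taken 7 days later. Flow cytometry sorted the cells to a stated purity of over 99%. The labels do not give the ages, the markers sorted on, or whether the 2 kinds of library shared mice. No label says that the 3 libraries of a group came from separate mice, so p-values measure only the spread between these libraries, which may be technical.

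The labels were checked against Il6 itself (chr5:30013114-30019975, GRCm38). Il6 lay between 16.2 and 219.7 normalized counts in the KO-labelled libraries and between 0 and 7.20 in the WT-labelled libraries. The targeted gene was thus higher under the KO label, and gene totals do not show which part of Il6 the reads came from. Every genotype difference below is therefore one between labels, KO over WT. Total reads ran from 7237462 to 11193088 in M-MDSC libraries and from 3249647 to 9999731 in PMN-MDSC libraries, and the 3 shallowest were all PMN-MDSC libraries. The summed level of 11 neutrophil markers was 4461 to 53564 normalized counts in M-MDSC libraries and 146470 to 631610 in PMN-MDSC libraries, so the neutrophil signature followed the labels.

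Classical monocytes leave the bone marrow through CCR2, the receptor for the chemokine CCL2, and are recognised in mice by high Ly6C protein, which Ly6c2 encodes. Monocytes and macrophages also make the A subunit of coagulation factor XIII, the transglutaminase that crosslinks fibrin and fibronectin. Factor X, once activated, converts prothrombin to thrombin, and fibronectin and versican form part of the provisional matrix in which leukocytes adhere.

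The 7 genes lie on 6 chromosomes of GRCm38, none of them the chromosome of Il6. Ccr2 spans chr9:124101918-124109140 on the plus strand and Ly6c2 chr15:75108161-75112066 on the minus strand. F13a1 spans chr13:36867178-37050244 and Vcan chr13:89655309-89743027, both on the minus strand. F10 spans chr8:13037308-13056676 on the plus strand, Fn1 chr1:71585473-71653280 on the minus strand, and Ahnak chr19:8989284-9076935 on the plus strand. An annotated antisense gene shares 74 of the 6739 exon bases of F13a1, and the antisense gene Apol7d shares 292 of the 11685 exon bases of Fn1. Apol7d itself had at most 9.16 normalized counts in any library.

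The 250 bases before the start are shown for the 3 genes that were lower under the KO label by the tests below, F13a1, Vcan and F10, so that their upstream sequence can be set beside their values. They come from RefSeq (GRCm38.p6), which had 8 start windows for 6 of the 7 genes, and capitals mark a match to the PU.1 core GAGGAA. The F13a1 window shown is chr13:37050245-37050494 (minus strand), the Vcan window chr13:89742513-89742762 (minus strand) and the F10 window chr8:13037058-13037307 (plus strand). The Vcan window lies inside the Vcan span given above. It therefore precedes a start within that span and not the outermost end of the gene.
F13a1: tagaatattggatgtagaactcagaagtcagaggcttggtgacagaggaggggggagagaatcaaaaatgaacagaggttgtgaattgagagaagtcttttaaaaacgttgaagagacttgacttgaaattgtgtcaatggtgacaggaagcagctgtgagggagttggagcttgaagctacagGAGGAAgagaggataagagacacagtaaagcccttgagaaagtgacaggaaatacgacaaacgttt
Vcan: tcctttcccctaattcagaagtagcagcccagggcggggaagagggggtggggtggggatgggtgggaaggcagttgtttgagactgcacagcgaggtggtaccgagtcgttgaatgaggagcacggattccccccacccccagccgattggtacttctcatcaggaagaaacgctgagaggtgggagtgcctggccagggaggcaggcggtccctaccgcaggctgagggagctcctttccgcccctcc
F10: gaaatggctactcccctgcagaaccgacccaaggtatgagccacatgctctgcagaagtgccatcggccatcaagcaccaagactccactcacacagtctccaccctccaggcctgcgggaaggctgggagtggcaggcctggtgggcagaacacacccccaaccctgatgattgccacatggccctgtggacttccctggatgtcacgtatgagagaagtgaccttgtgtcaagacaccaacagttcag

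PU.1 is a transcription factor of monocytes and neutrophils. Its letters stood 66 to 61 bases before the upstream F13a1 start and in both overlapping Ly6c2 windows, which have 1 match in common, and 23.4% of all 32536 windows of this length hold them on 1 of the strands. The letters TTCNNNGAA of STAT factors, through which IL-6 signals, were in none of the 8 windows and in 7.04% of all windows. Neither TTGCNNAA of C/EBP factors (9.57% of all windows) nor TGANTCA of AP-1 (6.73%) was in the 8 windows. The window of a second F13a1 start, chr13:37049214-37049463, held none of the 4 motifs. A match describes letters only.

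Between cell types, the 7 genes were higher in M-MDSCs almost throughout. F13a1 had the largest log2 difference in both KO-labelled comparisons, 7.02 in lymphodepleted and 6.65 in untreated cells, and Ccr2 in both WT-labelled comparisons, 4.85 in lymphodepleted and 5.47 in untreated cells. In lymphodepleted KO-labelled cells all 7 passed the test (limma, adjusted p under 0.05 over all genes), where 47.4% of the 13457 genes tested passed in either direction. In untreated KO-labelled cells all 7 passed, where 43.8% of all genes did. In untreated WT-labelled cells all 7 passed, where 50.5% of all genes did. In lymphodepleted WT-labelled cells 6 of 7 passed, where 39.3% of all genes did, and Ly6c2 did not. The median log2 difference of the 7 genes was 5.19 in lymphodepleted KO-labelled, 4.07 in lymphodepleted WT-labelled, 5.46 in untreated KO-labelled and 4.71 in untreated WT-labelled cells, and that of all genes lay between -0.08 and 0.07. In sorted bulk samples fewer cells of a type and less RNA per cell cannot be told apart.

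**Figure D1:**
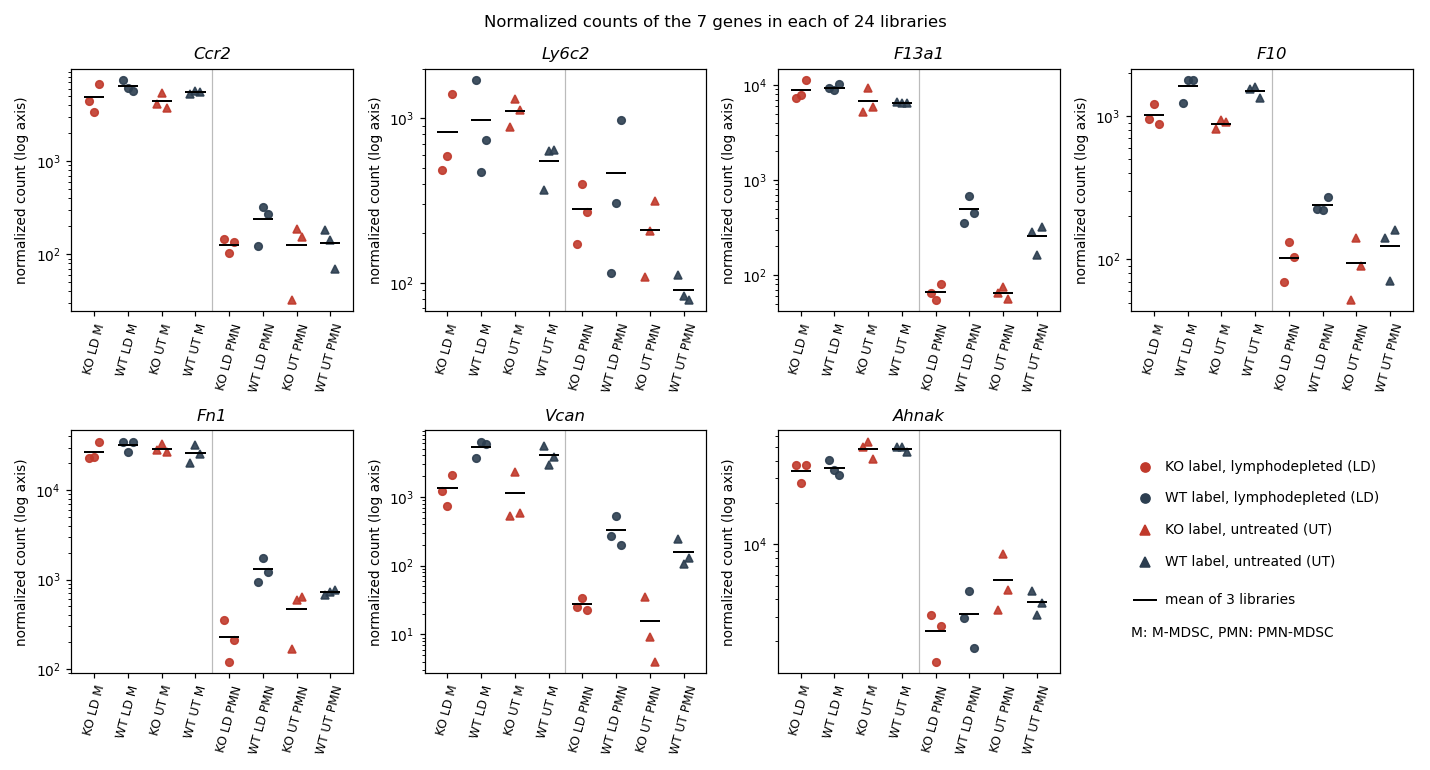
Normalized counts (log axis) of the 7 genes in each of the 24 libraries, by group, with a bar at the mean of the 3 libraries. M-MDSC groups stand left of the grey line and PMN-MDSC groups right of it. F13a1 and Vcan of KO-labelled PMN-MDSCs (red, right) lie below those of WT-labelled PMN-MDSCs without overlap, 54.3 to 81.5 against 163 to 683 normalized counts for F13a1.

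Levels between genes were compared per kilobase of exon. Fn1 and Ahnak were the 2 highest in all 4 M-MDSC groups. Fn1 averaged 2312 normalized counts per kilobase in lymphodepleted KO-labelled, 2739 in lymphodepleted WT-labelled, 2493 in untreated KO-labelled and 2212 in untreated WT-labelled M-MDSCs. F13a1 came next in each of these groups, with means from 971 to 1395 per kilobase, and then Ccr2, with 654 to 952. In PMN-MDSCs Vcan was the lowest of the 7 in every group, at 1.89 per kilobase in lymphodepleted KO-labelled, 23.0 in lymphodepleted WT-labelled, 1.10 in untreated KO-labelled and 11.1 in untreated WT-labelled libraries.

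In lymphodepleted M-MDSCs Ccr2 had 4377, 3366 and 6768 normalized counts under the KO label, against 7506, 6089 and 5717 under the WT label. It had 4147, 5379 and 3746 in untreated KO-labelled M-MDSCs, against 5288, 5623 and 5477 in untreated WT-labelled M-MDSCs. Both WT-labelled groups averaged higher than both KO-labelled groups, yet the KO and WT ranges overlapped with and without lymphodepletion. In PMN-MDSCs, Ccr2 had 145, 104 and 134 in lymphodepleted KO-labelled libraries, against 122, 321 and 274 in lymphodepleted WT-labelled libraries. The untreated KO-labelled PMN-MDSC libraries had 32.1, 189 and 154, and the untreated WT-labelled ones 181, 144 and 69.6. The lowest of these, 32.1 normalized counts in untreated KO-labelled PMN-MDSCs, rests on 13 reads in 1 of the 3 shallowest libraries, and all 4 PMN-MDSC groups overlapped their neighbours in the order of means. M-MDSCs exceeded PMN-MDSCs by 4.85 to 5.47 on the log2 scale (SE 0.46 each), and the highest adjusted p was 1.83e-08. The KO-label difference of Ccr2 in lymphodepleted M-MDSCs was -0.46 ± 0.21 (log2, SE) with an adjusted p of 0.534.

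Ly6c2 varied widely between libraries of 1 group, with a coefficient of variation of 60.6% in lymphodepleted KO-labelled M-MDSCs, 67.5% in lymphodepleted WT-labelled M-MDSCs and 96.9% in lymphodepleted WT-labelled PMN-MDSCs. Its values were 487, 592 and 1403 normalized counts in lymphodepleted KO-labelled M-MDSCs and 1723, 470.4 and 738 in lymphodepleted WT-labelled M-MDSCs. It had 886, 1313 and 1118 in untreated KO-labelled M-MDSCs, against 366, 633 and 644 in untreated WT-labelled M-MDSCs. The last 2 groups did not overlap, and the difference of 1.04 ± 0.43 (log2, SE) had an adjusted p of 0.181. In PMN-MDSCs it had 173, 399.9 and 268 in lymphodepleted KO-labelled libraries, against 116, 306 and 974 in lymphodepleted WT-labelled libraries. The untreated KO-labelled PMN-MDSC libraries had 109, 207 and 316, against 111, 82.8 and 78.4 in the untreated WT-labelled ones. One lymphodepleted WT-labelled PMN-MDSC library, at 974, stood above 8 of the 12 M-MDSC libraries. The M-MDSC excess was 1.48 ± 0.56 (adjusted p = 0.035) in lymphodepleted KO-labelled, 1.37 ± 0.56 (adjusted p = 0.0579) in lymphodepleted WT-labelled, 2.497 ± 0.56 (adjusted p = 0.00105) in untreated KO-labelled and 2.55 ± 0.56 (adjusted p = 0.000709) in untreated WT-labelled cells.

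Ly6C protein is commonly used to gate these cells, and a gene of the gate is no finding between the gated cells. Of the 817 stretches of 50 bases in Ly6c2 transcripts, 252 (30.8%) also occur in Ly6c1, so reads could be shared between the copies. Ly6c1 itself was listed between 0 and 11.1 normalized counts. The Ly6c2 call in lymphodepleted KO-labelled cells was lost without the third M-MDSC library (1.02, adjusted p = 0.189), without the first PMN-MDSC library (1.17, adjusted p = 0.143) or without the third one (1.49, adjusted p = 0.071), and also with no filter on low values (adjusted p = 0.056). In lymphodepleted WT-labelled cells it was gained without the second M-MDSC library (1.79, adjusted p = 0.0279) or without the third PMN-MDSC library (2.16, adjusted p = 0.00168), and under quantile normalization (adjusted p = 0.0323).

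F13a1 was high in all M-MDSC groups, and its values spread more widely under the KO label than under the WT label. Its normalized counts were 7366, 7854 and 11398 in lymphodepleted KO-labelled M-MDSCs and 9196, 8825 and 10182 in lymphodepleted WT-labelled M-MDSCs. Untreated KO-labelled M-MDSCs had 5146, 9294 and 5848, and untreated WT-labelled M-MDSCs had 6679, 6543 and 6401. The KO and WT ranges overlapped under both treatments, and the log2 differences in M-MDSCs were within 1 SE of 0. In PMN-MDSCs the 2 labels separated. F13a1 had 65.2, 54.3 and 81.5 normalized counts in lymphodepleted KO-labelled PMN-MDSCs, against 356, 683 and 449 in lymphodepleted WT-labelled PMN-MDSCs. It had 64.3, 74.5 and 55.4 in untreated KO-labelled PMN-MDSCs, against 283, 163 and 324 in untreated WT-labelled PMN-MDSCs. All 6 KO-labelled libraries lay below all 6 WT-labelled ones, on 26 to 79 reads in KO-labelled libraries and 111 to 736 reads in WT-labelled libraries.

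F13a1 was 7.14-fold lower under the KO label in lymphodepleted PMN-MDSCs (log2 -2.84 ± 0.35 SE, adjusted p = 0.00586), which passed the test. In untreated PMN-MDSCs it was 3.79-fold lower (-1.92 ± 0.35, adjusted p = 0.216), which did not. Averaged over both treatments, a comparison added after the data were seen, it was 5.20-fold lower in KO-labelled PMN-MDSCs (-2.38 ± 0.25, adjusted p = 0.000325). By contrast the same average was -0.05 ± 0.15 in M-MDSCs. The KO-label change differed between M-MDSCs and PMN-MDSCs by 2.73 ± 0.36 log2 units in lymphodepleted mice (adjusted p = 0.00169), by 1.92 ± 0.36 in untreated mice (adjusted p = 0.102) and by 2.32 ± 0.26 on average (adjusted p = 6.56e-05). Without the first lymphodepleted KO-labelled PMN-MDSC library the label difference in lymphodepleted PMN-MDSCs was -2.83 with an adjusted p of 0.058, and without the 3 shallowest PMN-MDSC libraries it was -3.05 with an adjusted p of 0.0546. The averaged difference passed the test under each of 21 alternatives, from -2.53 to -2.25.

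F10 encodes the zymogen of factor X. Lymphodepleted KO-labelled M-MDSCs held 959, 1210.5 and 888 normalized counts of it, and lymphodepleted WT-labelled M-MDSCs 1240.2, 1797 and 1790.4. In untreated M-MDSCs it had 809, 942 and 909 under the KO label, against 1548, 1584 and 1346 under the WT label. Every KO-labelled M-MDSC library was below every WT-labelled one. The untreated M-MDSC difference, 1.68-fold lower under the KO label (log2 -0.75 ± 0.16 SE, adjusted p = 0.0253), passed the test. The lymphodepleted M-MDSC difference of -0.65 ± 0.16 did not (adjusted p = 0.112). The average over both treatments was -0.70 ± 0.11 (adjusted p = 0.00341). The untreated call was lost without any 1 of 5 of the 6 libraries (adjusted p from 0.0686 to 0.0953), the second KO-labelled library being the exception.

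In PMN-MDSCs F10 had 69.3, 132 and 104 normalized counts in lymphodepleted KO-labelled libraries, against 225, 221 and 274 in lymphodepleted WT-labelled libraries. It had 51.9, 141 and 90.1 in untreated KO-labelled libraries, against 141, 70.8 and 161 in untreated WT-labelled ones. The lymphodepleted groups did not overlap, and the untreated ones did. The lymphodepleted difference of -1.27 ± 0.42 had an adjusted p of 0.495. M-MDSCs exceeded PMN-MDSCs by 2.73 ± 0.30 (lymphodepleted WT label) to 3.66 ± 0.30 (untreated WT label), the smallest cell type difference after that of Ly6c2 in these 2 groups.

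Fn1, which encodes fibronectin, had 22620.0, 23412 and 35024 normalized counts in lymphodepleted KO-labelled M-MDSCs and 34842, 26442 and 34719 in lymphodepleted WT-labelled M-MDSCs. Untreated KO-labelled M-MDSCs had 28044, 32818 and 26526, and untreated WT-labelled ones 20223, 31663 and 25667. All 4 groups overlapped. Fn1 of PMN-MDSCs was 353, 119 and 212 in lymphodepleted KO-labelled libraries, against 934, 1752 and 1229 in lymphodepleted WT-labelled libraries. It was 168, 584 and 635 in untreated KO-labelled PMN-MDSCs, against 673, 728 and 759.6 in untreated WT-labelled ones. Neither pair overlapped. The log2 difference was -2.60 ± 0.44 in lymphodepleted PMN-MDSCs (adjusted p = 0.107), -0.86 ± 0.44 in untreated PMN-MDSCs (adjusted p = 0.933) and -1.73 ± 0.31 on average (adjusted p = 0.158). None of these passed in limma, while DESeq2 called the lymphodepleted difference (adjusted p = 2.87e-05) and the average (adjusted p = 0.00159). The KO-label change of Fn1 differed between the cell types by 2.34 ± 0.54 in lymphodepleted mice, with an adjusted p of 0.198.

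Vcan encodes versican, a large chondroitin sulfate proteoglycan that binds hyaluronan. Lymphodepleted KO-labelled M-MDSCs held 1212, 728 and 2085 normalized counts of it, and lymphodepleted WT-labelled M-MDSCs 3639, 6374 and 5939. It had 522, 2264 and 581 in untreated KO-labelled M-MDSCs, against 5545, 2907 and 3788 in untreated WT-labelled M-MDSCs. No KO-labelled M-MDSC library reached the lowest WT-labelled one, and the second untreated KO-labelled library came nearest. In lymphodepleted PMN-MDSCs Vcan had 25.5, 34.0 and 22.7 normalized counts under the KO label, against 273, 526 and 200.2 under the WT label. In untreated PMN-MDSCs it had 34.6, 9.06 and 3.96 under the KO label, against 247, 106 and 128 under the WT label. The 2 labels separated in all 4 pairs of groups, and in KO-labelled PMN-MDSCs the values rest on 4 to 40 reads.

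Vcan passed the test in untreated M-MDSCs, where it was 4.46-fold lower under the KO label (log2 -2.16 ± 0.49 SE, adjusted p = 0.0318). It was 4.21-fold lower in lymphodepleted M-MDSCs (-2.07 ± 0.49, adjusted p = 0.0983), which did not pass. In PMN-MDSCs it was 10.98-fold lower after lymphodepletion (-3.46 ± 0.64, adjusted p = 0.198) and 12.4-fold lower without it (-3.64 ± 0.64, adjusted p = 0.216), and neither passed in limma. Both passed in DESeq2, at an adjusted p of 1.13e-06 after lymphodepletion and 8.2e-05 without it. The untreated PMN-MDSC difference also passed in limma without the first KO-labelled library (-4.42, adjusted p = 0.0236). The averages over both treatments passed in both cell types, at -2.12 ± 0.35 in M-MDSCs (adjusted p = 0.00383) and -3.55 ± 0.45 in PMN-MDSCs (adjusted p = 0.00333). The difference of these averages between the cell types was 1.43 ± 0.58 with an adjusted p of 0.70. The untreated M-MDSC call was lost in edgeR (adjusted p = 0.0634), in DESeq2 (adjusted p = 0.0507) and without any 1 of 5 of the 6 libraries (adjusted p from 0.0694 to 0.126). The second untreated KO-labelled library was again the exception.

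Ahnak, whose product is a membrane scaffold that binds annexin A2 with S100A10, did not separate the labels. It had 37176, 27613 and 37098 normalized counts in lymphodepleted KO-labelled M-MDSCs and 40445, 34170.0 and 31576 in lymphodepleted WT-labelled M-MDSCs. It had 50162, 55169 and 41410.0 in untreated KO-labelled M-MDSCs and 49971, 49982 and 46272 in untreated WT-labelled M-MDSCs. Lymphodepleted M-MDSC libraries lay below untreated ones of the same label without overlap. In PMN-MDSCs Ahnak had 3057, 1405 and 2576 in lymphodepleted KO-labelled and 2921, 4615 and 1782 in lymphodepleted WT-labelled libraries. The untreated KO-labelled PMN-MDSC libraries had 3343, 8472 and 4644, and the untreated WT-labelled ones 4614, 3055 and 3761. In PMN-MDSCs only the KO-labelled pair kept lymphodepleted below untreated without overlap. The KO-label differences in M-MDSCs were within 1 SE of 0 under both treatments.

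Counted over the 7 genes, the label calls fell on F10 and Vcan in M-MDSCs and on F13a1 and Vcan in PMN-MDSCs. In lymphodepleted M-MDSCs 0 of 7 passed in limma, where 0.207% of all 11570 genes passed. At an unadjusted p under 0.05 there were 3, edgeR called 0 and DESeq2 called 1, F10. Of all 11570 genes, 1081 had such a p in limma, edgeR called 23 and DESeq2 185. In untreated M-MDSCs 2 of 7 passed, F10 and Vcan, where 4.03% of all genes passed. Over both treatments 2 of 7 passed in M-MDSCs, the same F10 and Vcan, where 4.09% of all genes passed. In lymphodepleted PMN-MDSCs 1 of 7 passed, F13a1, where 0.0154% of all 12971 genes did, which is 2 genes, the other being Il6. In untreated PMN-MDSCs 0 of 7 passed in limma, where 0.00771% of all genes did. There 2 of 7 had an unadjusted p under 0.05, edgeR called 0 and DESeq2 called 2, F13a1 and Vcan. Of all 12971 genes, 468 had such a p in limma, edgeR called 0 and DESeq2 10. Over both treatments 2 of 7 passed in PMN-MDSCs, F13a1 and Vcan, where 0.0231% of all genes did, which is 3 genes, the other being Il6.

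Ranked by unadjusted p over all genes tested, the order was F13a1, Il6, Fn1 and Vcan in lymphodepleted PMN-MDSCs. In untreated PMN-MDSCs it was Il6, Vcan and F13a1. In the difference of the KO-label change between cell types, 1 of 7 passed in lymphodepleted mice, where 0.00743% of the 13457 genes did, and that gene was F13a1. In untreated mice 0 of 7 passed in limma, where 0.0149% of all genes did. There 1 of 7 had an unadjusted p under 0.05, edgeR called 0 and DESeq2 called 1, F13a1. Of all 13457 genes, 581 had such a p in limma, edgeR called 1 and DESeq2 16. On average over both treatments 1 of 7 passed, F13a1, where 0.0149% of all genes did.

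**Figure D2:**
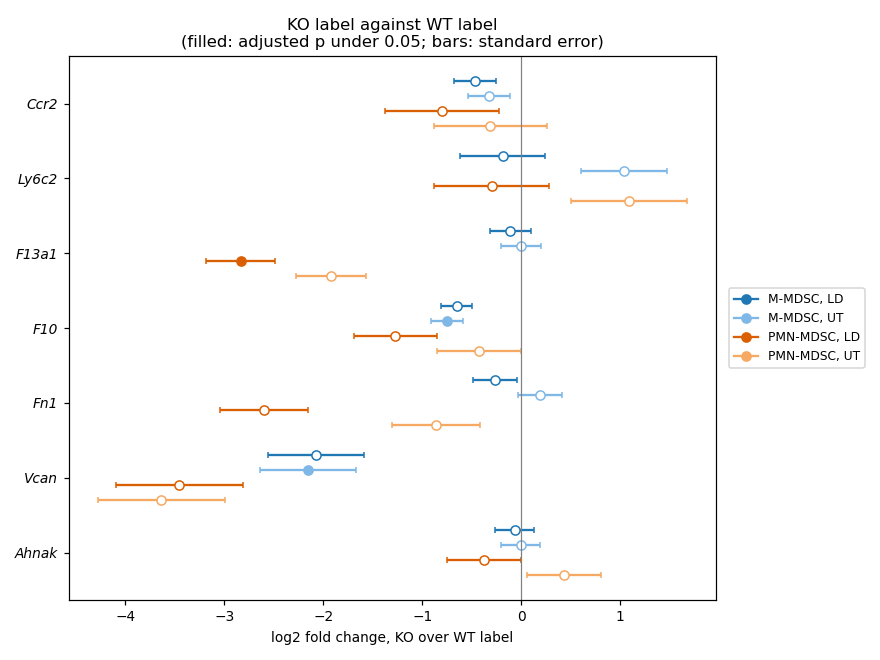
Log2 fold change, KO over WT label, of each gene in M-MDSCs (blue) and PMN-MDSCs (orange), lymphodepleted (dark) and untreated (light), with bars of 1 standard error and filled points where the adjusted p was under 0.05. F13a1 sits at -2.84 and -1.92 in PMN-MDSCs and near 0 in M-MDSCs, while Vcan lies left of -2 in all 4 comparisons.

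Values in PMN-MDSCs were also set against the M-MDSC mean of the same label and treatment, as a description without a test. F13a1 of PMN-MDSCs was 0.756% of the M-MDSC mean in lymphodepleted KO-labelled mice, against 5.28% in lymphodepleted WT-labelled mice. In untreated mice it was 0.957% under the KO label and 3.92% under the WT label. Fn1 was 0.843% in lymphodepleted KO-labelled and 4.08% in lymphodepleted WT-labelled mice, and 1.59% in untreated KO-labelled and 2.79% in untreated WT-labelled mice. Ccr2 ran closer together, at 2.64% in lymphodepleted KO-labelled and 3.71% in lymphodepleted WT-labelled mice, and at 2.83% in untreated KO-labelled and 2.41% in untreated WT-labelled mice. Over 22 other classical monocyte genes the median was 33.2% in lymphodepleted KO-labelled, 22.5% in lymphodepleted WT-labelled, 28.9% in untreated KO-labelled and 22.5% in untreated WT-labelled mice.

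**Figure D3:**
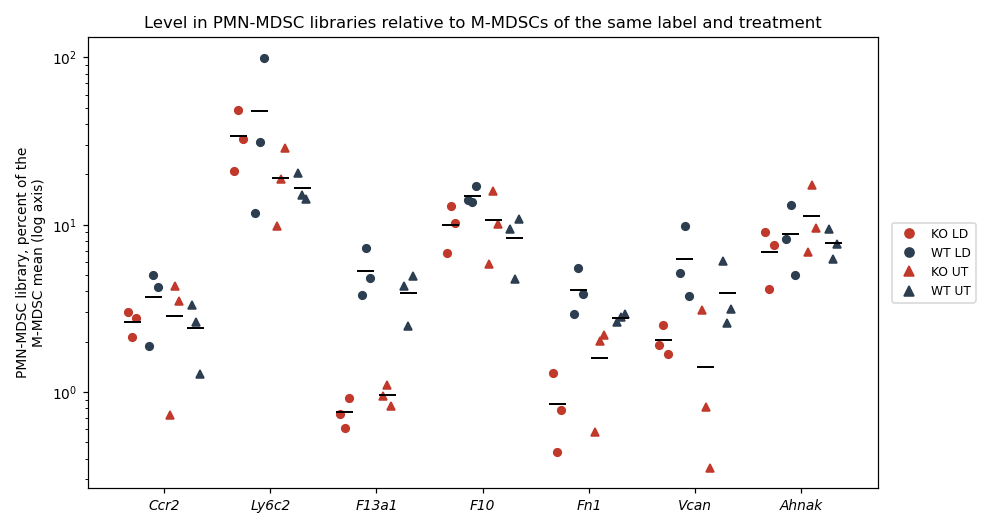
Each PMN-MDSC library as a percent (log axis) of the M-MDSC mean of the same label and treatment, for the 7 genes, with a bar at the mean of 3 libraries. F13a1 of KO-labelled libraries (red) lies between 0.612% and 1.10%, below WT-labelled libraries (dark) at 2.49% to 7.26%, whereas Ccr2 and Ahnak of the 2 labels overlap.

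Other cell types known to express these genes were looked at in the same libraries. Platelets hold factor XIII A, and the summed level of 9 platelet and megakaryocyte markers was 146 to 219 normalized counts in lymphodepleted KO-labelled PMN-MDSCs and 52.4 to 448 in lymphodepleted WT-labelled PMN-MDSCs. In untreated PMN-MDSCs the platelet sum was 144 to 200.3 under the KO label and 218 to 263 under the WT label, without overlap. Fibroblasts make fibronectin and versican, and the sum of 8 fibroblast markers was 63.0 to 109 in lymphodepleted KO-labelled and 85.4 to 157 in lymphodepleted WT-labelled PMN-MDSCs. Of these markers Dcn was at 0 in both of these groups and in untreated KO-labelled PMN-MDSCs. Col1a1, the highest of them in lymphodepleted PMN-MDSCs, averaged 54.7 under the KO label and 76.0 under the WT label. Col1a2 and Col3a1 also averaged higher under the WT label, while Pdgfra, Pdgfrb, Lum and Col6a1 averaged higher under the KO label. Red pulp macrophage markers (12 genes) summed to 3078 to 4247 in lymphodepleted KO-labelled and 2586 to 3419 in lymphodepleted WT-labelled PMN-MDSCs. Slc40a1 made up most of this sum, with means of 3230 under the KO label and 2124 under the WT label. Hmox1 was level at 244 under the KO label and 242 under the WT label. Each other marker of the list averaged lower under the KO label, such as Axl at 85.2 against 176. Markers of 3 other kinds of cell did not overlap between the labels in lymphodepleted PMN-MDSCs. The 8 granulocyte-monocyte progenitor markers summed to 437 to 1237 under the KO label and 1432 to 2780.1 under the WT label. The 6 NK cell markers summed to 263 to 409 under the KO label and 57.8 to 179 under the WT label, and the 6 T cell markers to 114 to 148 under the KO label and 37.1 to 73.8 under the WT label. None of these 20 markers passed in limma by itself. In untreated PMN-MDSCs the NK cell sum was 448 to 1702 under the KO label and 245 to 324 under the WT label. The dendritic cell sum was 2609 to 3518 there under the KO label and 3742.5 to 4557 under the WT label. Neither overlapped. Itgax made up most of the dendritic cell sum, while Flt3, Zbtb46, Xcr1 and Cd209a averaged higher under the KO label. The part of all these cells in the F13a1, Fn1 and Vcan differences was not tested. In untreated M-MDSCs, where F10 and Vcan passed, the 6 NK cell markers summed to 5761 to 8622 under the KO label and 1434 to 1697 under the WT label, and 6 of 6 passed as higher. Granulocyte-monocyte progenitor markers (8 genes) summed to 371 to 8712 there under the KO label and 144 to 216 under the WT label. The T cell sum was 768 to 1236.5 there under the KO label and 195 to 305 under the WT label. B cell markers summed to 573 to 940 under the KO label and 279 to 345 under the WT label. Sums of dendritic cell, endothelial and neutrophil markers were also higher there under the KO label without overlap. Their part in the F10 and Vcan differences was not tested either.

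Lymphodepletion moved none of the 7 genes past the test, within either label or cell type. In KO-labelled M-MDSCs 0 of 7 passed in limma, where 11.6% of all genes did. Ahnak had an unadjusted p under 0.05 (1 of 7), edgeR called 0, and DESeq2 called 1, again Ahnak. Of all 11570 genes, 3049 had such a p in limma, edgeR called 1298 and DESeq2 1792. In WT-labelled M-MDSCs 0 of 7 passed in limma, where 18.3% of all genes did. There 2 of 7 had an unadjusted p under 0.05, edgeR called 0 and DESeq2 called 2, F13a1 and Ahnak. Of all 11570 genes, 3807 had such a p in limma, edgeR called 1946 and DESeq2 2435. In KO-labelled PMN-MDSCs 0 of 7 passed in limma, where 0.224% of all genes did. Again 1 of 7 had an unadjusted p under 0.05, Ahnak, and edgeR and DESeq2 called 0. Of all 12971 genes, 1321 had such a p in limma, edgeR called 24 and DESeq2 236. In WT-labelled PMN-MDSCs 0 of 7 passed in limma, where 10.9% of all genes did. Here 3 of 7 had an unadjusted p under 0.05, edgeR called 1, Ly6c2, and DESeq2 called 2, Ly6c2 and F13a1. Of all 12971 genes, 3776 had such a p in limma, edgeR called 1020 and DESeq2 2008.

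Several of these differences were free of overlap between groups of 3. There were 3 of 7 in WT-labelled M-MDSCs, 1 of 7 in KO-labelled M-MDSCs and 1 of 7 in KO-labelled PMN-MDSCs. The share of all genes free of overlap was not counted for these 3 comparisons. These counts therefore have no background and are not read as a result about the 7 genes. Ccr2 of WT-labelled M-MDSCs had 5717 to 7506 normalized counts in lymphodepleted and 5288 to 5623 in untreated libraries. F13a1 of WT-labelled M-MDSCs was 0.52 ± 0.21 log2 units higher after lymphodepletion (adjusted p = 0.0959), with 8825 to 10182 normalized counts in lymphodepleted and 6401 to 6679 in untreated libraries. Ahnak was lower after lymphodepletion by -0.53 ± 0.20 in KO-labelled M-MDSCs (adjusted p = 0.107), by -0.47 ± 0.20 in WT-labelled M-MDSCs (adjusted p = 0.121) and by -1.19 ± 0.38 in KO-labelled PMN-MDSCs (adjusted p = 0.236). In WT-labelled PMN-MDSCs 4 of the 7 genes were higher without overlap, where 12% of all genes were. Ly6c2 differed by 1.85 ± 0.58 (adjusted p = 0.0528), F10 by 1.02 ± 0.42 (adjusted p = 0.122), F13a1 by 0.95 ± 0.35 (adjusted p = 0.0853) and Fn1 by 0.81 ± 0.44 (adjusted p = 0.24). The median of all genes in that comparison was -0.20. Without the first lymphodepleted WT-labelled PMN-MDSC library, the shallowest of all, Ly6c2 (2.59, adjusted p = 0.00822) and F13a1 (1.17, adjusted p = 0.049) passed. F13a1 of KO-labelled M-MDSCs passed only without the second untreated library (0.67, adjusted p = 0.0457).

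Markers of other cells moved with lymphodepletion in M-MDSCs. Of all genes 18.3% passed there under the WT label and 11.6% under the KO label, in either direction. Under the WT label the 11 neutrophil markers summed to 13046 to 53564 normalized counts in lymphodepleted and 4461 to 4808 in untreated M-MDSCs, and 6 of 11 passed as higher. The granulocyte-monocyte progenitor sum was 5098 to 16252 in lymphodepleted and 144 to 216 in untreated WT-labelled M-MDSCs, and that of 8 cell cycle genes 13794 to 22950.0 in lymphodepleted and 728 to 773 in untreated ones. All 8 genes of both lists passed as higher there. Under the KO label 5 of 11 neutrophil, 2 of 8 progenitor and 8 of 8 cell cycle genes passed as higher. Their part in the lymphodepletion values above was not tested.

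**Figure D4:**
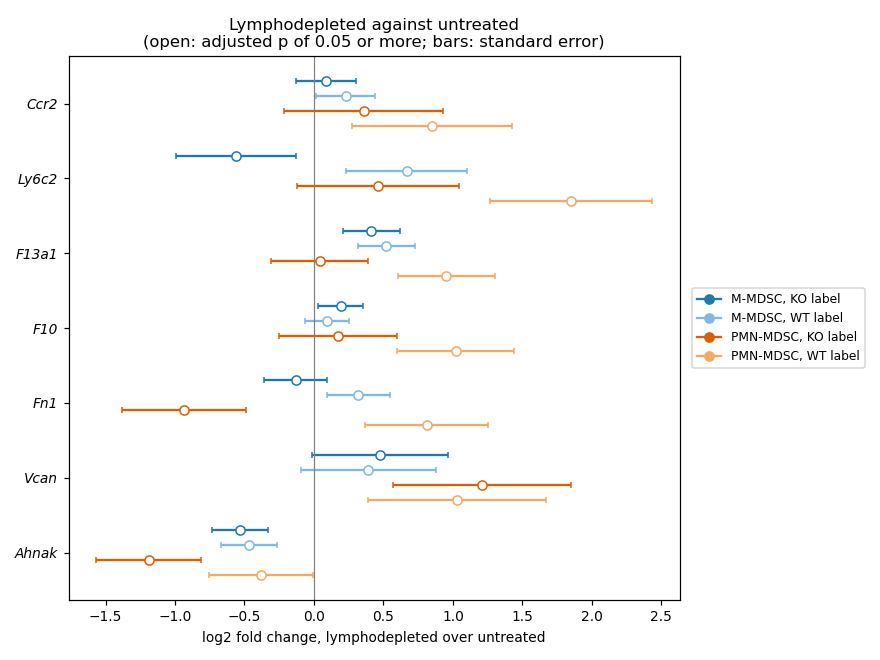
Log2 fold change, lymphodepleted over untreated, of each gene in M-MDSCs (blue) and PMN-MDSCs (orange) of the KO label (dark) and the WT label (light), with bars of 1 standard error. All points are open, since no adjusted p was under 0.05, and Ahnak is the 1 gene with all 4 points left of 0.

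The lymphodepletion change of the 7 genes was also compared between labels and between cell types. In M-MDSCs 0 of 7 differed between labels in limma, where 0.00864% of all genes did, and in PMN-MDSCs 0 of 7 did, where 0% of all genes did. At an unadjusted p under 0.05 there were 0 in M-MDSCs and 1 in PMN-MDSCs, Fn1, and edgeR and DESeq2 called 0 in both. Over all genes, 1413 of 11570 in M-MDSCs and 1108 of 12971 in PMN-MDSCs had such a p in limma. For all genes edgeR called 2 in M-MDSCs and 1 in PMN-MDSCs, and DESeq2 called 71 and 29. Fn1 of PMN-MDSCs was lower after lymphodepletion under the KO label (-0.94 ± 0.44) and higher under the WT label (0.81 ± 0.44), and the difference of -1.75 ± 0.63 had an adjusted p of 0.567. Between cell types 0 of 7 differed in limma under the KO label, where 0.0966% of all genes did, and 0 of 7 under the WT label, where 0.788% did. At an unadjusted p under 0.05 there were 0 under the KO label and 1 under the WT label, F10, and edgeR and DESeq2 called 0 in both. Of all 13457 genes, 1031 under the KO label and 1995 under the WT label had such a p in limma. For all genes edgeR called 16 under the KO label and 82 under the WT label, and DESeq2 called 98 and 342.

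Other genes of the same roles give the setting, described by counts and medians. Over all genes tested, 50.5% passed between cell types in untreated WT-labelled cells and 4.03% between labels in untreated M-MDSCs, in either direction. Between labels in untreated M-MDSCs, 2563 of all 11570 genes had an unadjusted p under 0.05 in limma. There edgeR called 499 of all genes and DESeq2 1071. Of 22 other classical monocyte genes tested in untreated WT-labelled cells, 14 were higher and 5 lower in M-MDSCs than in PMN-MDSCs, with a median log2 difference of 2.15 against -0.08 for all genes. The largest evidence was for Ccr1, a chemokine receptor, at -4.99 ± 0.31, Ctsc, which encodes cathepsin C, at 3.55 ± 0.28, and Ms4a6c at 4.68 ± 0.38. Under the KO label in untreated M-MDSCs, 1 of the 22 was higher and 2 lower than under the WT label (median -0.16, against 0.01 for all genes). These were Irf8, a transcription factor of monocyte development, at 0.61 ± 0.15 (adjusted p = 0.0373), Thbs1, which encodes thrombospondin 1, at -1.26 ± 0.32 (adjusted p = 0.0432), and Hp, which encodes haptoglobin, at -0.71 ± 0.19 (adjusted p = 0.0495). In lymphodepleted PMN-MDSCs 0 of the 22 passed between labels in limma, edgeR or DESeq2 (4 at an unadjusted p under 0.05), and their median was 0.03, against 0.04 for all genes. Of all 12971 genes, 1077 had such a p there in limma.

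Of the other coagulation factors and cofactors, 9 of the 16 with a row passed the filter between cell types. In untreated WT-labelled cells 1 was higher and 5 were lower in M-MDSCs, where 50.5% of all genes passed in either direction. F13a1 and F10 were higher there. F12, which encodes factor XII, was listed at 0 in all 3 M-MDSC libraries and had 212, 187 and 163 normalized counts in the PMN-MDSC libraries. Furin, a proprotein convertase, was lower by -1.31 ± 0.17, and Ggcx, the carboxylase of vitamin K dependent factors such as factor X, was higher by 1.87 ± 0.46. Among 11 anticoagulant and fibrinolysis genes 4 were higher and 3 lower in M-MDSCs, beside the same 50.5% of all genes. They were led by Anxa5 (3.08 ± 0.27), S100a10 (4.23 ± 0.58) and Plaur, the urokinase receptor (-1.17 ± 0.18). Under the KO label in untreated M-MDSCs 0 of 6 coagulation genes passed in limma (4 at an unadjusted p under 0.05, 0 in edgeR, 1 in DESeq2), and 1 of 10 anticoagulant genes was lower. It was Pros1, which encodes protein S, a cofactor against coagulation, at -0.79 ± 0.18 (adjusted p = 0.0319). Pros1 had 223, 229 and 145 normalized counts in untreated KO-labelled M-MDSCs, against 376, 291 and 353 in untreated WT-labelled ones, without overlap.

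Of the thrombin and protease receptors, F2r, which encodes PAR1, was higher under the KO label in untreated M-MDSCs, 1 of 3 tested. F2r had 97.4, 127 and 83.6 normalized counts there, against 29.8, 27.5 and 17.0 under the WT label (log2 2.02 ± 0.38 SE, adjusted p = 0.0156). After lymphodepletion F2r was lower in KO-labelled M-MDSCs (-2.41 ± 0.38, adjusted p = 0.00204) and in WT-labelled M-MDSCs (-1.63 ± 0.38, adjusted p = 0.00934). Of 3 other transglutaminase genes, Tgm1 was lower under the KO label in untreated M-MDSCs, with 17.7, 27.7 and 14.3 normalized counts under the KO label and 82.4, 50.8 and 76.4 under the WT label (-1.78 ± 0.33, adjusted p = 0.0156). Plau, which encodes urokinase, was higher after lymphodepletion in KO-labelled M-MDSCs (0.91 ± 0.24, adjusted p = 0.0263), WT-labelled M-MDSCs (1.08 ± 0.24, adjusted p = 0.00751) and WT-labelled PMN-MDSCs (2.81 ± 0.69, adjusted p = 0.0236).

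Receptors and partners of fibronectin and versican showed 0 of 9 genes passing in limma under the KO label in untreated M-MDSCs (5 at an unadjusted p under 0.05, 0 in edgeR and in DESeq2). After lymphodepletion 0 were higher and 4 of 9 lower in KO-labelled M-MDSCs, where 11.6% of all genes passed in either direction. The 4 were led by Itga4 (-0.88 ± 0.19), Itgb1 (-0.77 ± 0.18) and Cd44 (-0.77 ± 0.18). These encode the fibronectin receptor chains alpha 4 and beta 1 and the hyaluronan receptor. In WT-labelled M-MDSCs 0 were higher and 3 of 9 lower, where 18.3% of all genes passed in either direction. The 3 were Itga4 (-0.86 ± 0.19), Itgav (-0.86 ± 0.22) and Itgb1 (-0.70 ± 0.18). Of the monocyte traffic genes, which share Itga4 and Itgb1, 1 of 8 was higher in KO-labelled M-MDSCs, Cxcr4 (0.88 ± 0.21), and 4 were lower, among them these 2 integrin genes. Among 3 AHNAK partners Myof, which encodes myoferlin, was lower under the KO label in untreated M-MDSCs (-1.03 ± 0.22, adjusted p = 0.0244). Of 4 Ly6 family genes 0 passed there in limma (2 at an unadjusted p under 0.05, 0 in edgeR, 1 in DESeq2), and Ly6e, the highest of them, averaged 4078 normalized counts under the KO label and 3255 under the WT label. Of 10 monocyte fate regulators 2 were higher there, Irf8 and Gfi1 (1.56 ± 0.41, adjusted p = 0.0497), and 0 were lower. Over all 10 lists, with 89 entries tested, 0 passed between labels in PMN-MDSCs in limma, edgeR or DESeq2, lymphodepleted or untreated. At an unadjusted p under 0.05 there were 16 entries in lymphodepleted and 3 in untreated PMN-MDSCs. Of all 12971 genes, 1077 in lymphodepleted and 468 in untreated PMN-MDSCs had such a p in limma.

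The genes most like each member were sought over log2 values of 8332 genes, as a description in which libraries share depth and cell type. Over all 24 libraries F13a1 was most like Fn1 (Pearson r = 0.982), Fn1 most like F13a1, and Vcan most like F13a1 (r = 0.934). Ccr2 was most like Ms4a6c (r = 0.983), Ahnak like Rassf4 (r = 0.993), F10 like Larp1 (r = 0.978) and Ly6c2 like Sep15 (r = 0.952). These values mostly follow the gap between the cell types. Within the 12 M-MDSC libraries the nearest genes were others. Vcan was then most like Fam129b (r = 0.969), Olfm1 (r = 0.945) and Fnip2 (r = 0.942), and F10 most like Flot1 (r = 0.973), Ugt1a7c (r = 0.956) and Cd300lf (r = 0.956). Ly6c2 was most like the ribosomal protein gene Rpl28 (r = 0.934), then Snrpf (r = 0.918) and Rps26 (r = 0.909). Ahnak was most like Shisa5 (r = 0.971), Fn1 like Psma2 (r = 0.927), Ccr2 like Ctsc (r = 0.892) and F13a1 like Rpl41 (r = 0.857). Flot1, which encodes flotillin 1, averaged 400.1 and 337 normalized counts in lymphodepleted and untreated M-MDSCs under the KO label, and 661 and 611 under the WT label.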

How the data were processed

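The sample titles put 24 libraries of total RNA from sorted spleen cells into 8 groups of 3. Per the labels' protocols, libraries were made from 100 ng of RNA with the NuGen Ovation Mouse RNA-seq System and AnyDeplete removal of ribosomal RNA. The tools named in the submitters' processing notes are STAR 2.5.3a, HTSeq 0.6.1 and DESeq2, with build mm10. The sources used here name no strand setting, annotation or filter. The authors deposited a signal per gene, that is a count of reads scaled by 1 size factor for each library. Dividing by the smallest step gave whole reads for 100% of values (tolerance 0.001), so depth is known. Rn45s, a ribosomal RNA row, took 2.94% to 19.8% of reads.

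The test was limma 3.58.1 in R 4.3.3 with a trend, on log2(normalized count + 1), so fold changes of low genes are understated. Comparisons within a cell type used its 12 libraries, with 1 mean per group, and comparisons between cell types used all 24. Genes needed 10 normalized counts in 3 libraries, and those with a two-sided p under 0.05 after Benjamini-Hochberg adjustment over all genes tested passed. There were 12 pairwise comparisons and 4 interactions. The averages over LD and UT mice and the cell type by genotype label differences were added after the data were seen. The script was tested on simulated data. Alternatives were pseudocounts of 0.5 and 5, no filter, quantile normalization, count tests on the recovered reads (edgeR 4.0.16, DESeq2 1.42.0), a replicate block, 1 fit of all 24 libraries, leaving out each library, and, added later, leaving out the 3 shallowest PMN-MDSC libraries. Intervals are standard errors between libraries.

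The 7 genes, the gene lists and the tests were chosen with earlier results of these data known. Named genes were the 7 members in every group, the 3 genes most like each (Pearson r of log2 values, genes with a mean of 100 or more in a group), up to 3 called genes of the smallest adjusted p per list and comparison, or up to 2 of the highest level, and Il6. F12 values, F2r after lymphodepletion, and Flot1 means were given after their values were seen. The 10 lists were other classical monocyte genes, monocyte traffic, coagulation factors, anticoagulants and fibrinolysis, protease-activated receptors, transglutaminases, fibronectin and versican partners, AHNAK partners, the Ly6 family and monocyte fate regulators. Values of 2 listed genes are not reported here. Positions and promoter windows come from RefSeq, and strands and exon lengths from GENCODE vM21, both of build GRCm38.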

Additional observations from a re-analysis of the deposited data

Results flagged for a closer look

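The KO-label change of F13a1 differed between M-MDSCs and PMN-MDSCs by 2.73 log2 units in lymphodepleted mice and by 2.32 on average over both treatments, and both differences passed limma's interaction test over all genes. It was the 1 gene of the 7 to do so. Each passed under every alternative run, 20 for the lymphodepleted difference (2.47 to 2.94) and 32 for the average (2.20 to 2.47). Both comparisons were added after the data were seen, and no cause was tested.

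Among the lists of related genes, Ccr1 and Cxcr4 changed differently with lymphodepletion in the 2 cell types under the WT label. The M-MDSC change exceeded the PMN-MDSC change by 2.18 for Ccr1 and by 1.82 for Cxcr4 (limma, log2 units). In WT-labelled mice Ccr1 was higher after lymphodepletion by 0.97 in M-MDSCs and lower by -1.20 in PMN-MDSCs, and Cxcr4 was higher by 1.07 in M-MDSCs and lower by -0.75 in PMN-MDSCs. Ccr1 was lower in M-MDSCs than in PMN-MDSCs by -2.82 in lymphodepleted and by -4.99 in untreated WT-labelled mice. In the same WT-labelled M-MDSCs the 11 neutrophil markers summed to 13046 to 53564 normalized counts after lymphodepletion and 4461 to 4808 without it, and their part in these differences was not tested.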

How the results depend on the processing

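Of 99 differences of the 7 genes larger than their standard error, 74 kept their direction and their side of the threshold under every alternative. One turned its sign: F10, KO against WT label in untreated PMN-MDSCs, was 0.17 without the 3 shallowest PMN-MDSC libraries, against -0.42 with them. The cause was not tested, here or for the counts that follow.

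Counts of the 7 genes passing moved as follows. KO against WT in lymphodepleted M-MDSCs, 0 in the report, DESeq2 gave 1, and leaving out libraries gave 0 to 1. KO against WT in untreated M-MDSCs, 2 in the report, edgeR, DESeq2 and the replicate block gave 1 each, all 24 libraries in 1 fit gave 0, and leaving out libraries 0 to 2. The same comparison averaged over treatments, 2 in the report, gave 1 with all 24 in 1 fit and 2 to 3 without single libraries, Ccr2 passing without the third lymphodepleted KO-labelled library (-0.53, adjusted p = 0.0337). Between cell types the counts were 6 or 7 throughout, and Ly6c2 was the gene that moved. KO against WT in lymphodepleted PMN-MDSCs, 1 in the report, DESeq2 and a pseudocount of 5 gave 3, all 24 in 1 fit 4, leaving out the 3 shallowest libraries 0, and leaving out 1 library 0 to 1. KO against WT in untreated PMN-MDSCs, 0 in the report, DESeq2 and all 24 in 1 fit gave 2, and leaving out libraries 0 to 1. LD against UT in KO-labelled M-MDSCs, 0 in the report, DESeq2 gave 1, and leaving out libraries 0 to 1. LD against UT in WT-labelled M-MDSCs, 0 in the report, quantile normalization gave 1 and DESeq2 2. LD against UT in WT-labelled PMN-MDSCs, 0 in the report, a pseudocount of 5, edgeR, the replicate block and leaving out the 3 shallowest libraries gave 1 each, DESeq2 2, all 24 in 1 fit 3, and leaving out libraries 0 to 2. The cell type by genotype label difference gave 2 against 1 in lymphodepleted mice by DESeq2 or without the 3 shallowest libraries, 1 against 0 in untreated mice by DESeq2 or with no filter and 0 to 1 without single libraries, and 2 against 1 on average by DESeq2.

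Over all genes, DESeq2 called 46 between labels in lymphodepleted PMN-MDSCs and all 24 libraries in 1 fit called 111, against 2 in the report. Samples share only a replicate number: of 84 same-numbered pairs 12 correlated above 0.1 in their deviations from group means (-0.176 to 0.225). The replicate block moved the counts given above and made Ly6c2 pass between cell types in lymphodepleted WT-labelled mice (adjusted p = 0.0413). It changed no other count of the 7 genes by over 1.5 times. In KO-labelled PMN-MDSCs F13a1 rests on 26 to 79 reads and Vcan on 4 to 40, which limits the precision of both.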
